A study of Mus musculus with 9 samples.

Results

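Heparan sulfate genes were examined in the hippocampus of mice with an activating Braf allele. The 10 genes were taken by symbol from the deposited expression table of 18275 genes, and each was found under 1 gene ID. They are the extracellular sulfatases Sulf1 and Sulf2, the sulfotransferases Hs2st1, Hs6st1 and Hs6st2, the glypicans Gpc1 and Gpc4, and the syndecans Sdc2, Sdc3 and Sdc4. The study sequenced hippocampal RNA from 4 Nestin;BrafKE/+ mice and 5 Braf+/+ mice, with 1 library per animal, to compare gene expression between the genotypes. All mice were male littermates of the strain C57BL/6N, aged 11 to 15 weeks. Nestin;BrafKE/+ mice, called mutants here, carry 1 Braf allele with the change K499E (numbered as in the human protein), which a floxed cassette keeps silent until Nestin-Cre removes it. Braf+/+ mice, called controls, carry only wild-type Braf, and whether any of them carried Nestin-Cre is not given in the sources used here. Nestin-Cre acts in embryonic neural stem cells, so the mutant allele is on in neurons, astrocytes and oligodendrocytes alike and a change in whole hippocampus cannot be assigned to 1 of them. The allele was built in hybrid embryonic stem cells, and none of the 10 genes lies on chromosome 6, which holds Braf.

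Heparan sulfate is a long sugar chain attached to core proteins at the cell surface and in the extracellular matrix. Glypicans hold such chains on the membrane by a lipid anchor, and syndecans by a transmembrane domain. As a chain is made in the Golgi, sulfotransferases add sulfate at set positions, and Sulf1 and Sulf2 later remove 6-O-sulfate from finished chains outside the cell. The pattern of sulfate decides which fibroblast growth factors, morphogens and guidance cues a chain can hold, and fibroblast growth factor receptors need heparan sulfate to signal into the RAS/ERK pathway in which BRAF acts. In the brain astrocytes secrete glypicans that promote synapse formation, and syndecan-3 is the main syndecan of neurons.

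The library names in the labels carry 4 prefixes, which were grouped here into 3 series by joining the prefixes that are numbers. The labels do not give this grouping. The series are called A (mutant replicate 1 and control replicates 1, 2 and 3), B (mutant replicates 2 and 3 and control replicate 4) and C (mutant replicate 4 and control replicate 5). Values are normalised counts as deposited, and the libraries sum to between 19551300 and 20091500, so the depth of sequencing behind a value is unknown. None of the 9 to 12 markers each of excitatory neurons and astrocytes was at 0 in any library. Control replicates 2 and 4 stood apart from the others in markers of the choroid plexus, the tissue that makes cerebrospinal fluid and lies against the hippocampus. Their summed level over 9 choroid plexus markers was 393816 and 115037, against 1468 to 24752 in the other 7 libraries. The summed level of 8 meningeal markers was also highest in control replicate 2, at 8020, against 2438 to 4362 in the other libraries. Values without control replicates 2 and 4 are given where they turn a direction, end a call or move a value by more than 1.5 times.

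Sequence upstream of the gene start is shown for Sulf2, the single member that passed the test, for Hs6st1, which encodes an enzyme that adds the sulfate Sulf2 removes, and for Sdc4, the only member with a match to the binding motif of ETS factors, a family that includes transcription factors activated by ERK. The sequences are RefSeq entries on GRCm38.p6, each 250 bases that end just before the gene start, 5′ to 3′ on the gene's strand. The table of promoters held 7 of the 10 members (not Sulf1, Gpc1 and Sdc2) with 9 starts, of which 2 belong to Sulf2. Capitals mark the ETS match.
Sulf2, chr2:166155286-166155535, minus strand: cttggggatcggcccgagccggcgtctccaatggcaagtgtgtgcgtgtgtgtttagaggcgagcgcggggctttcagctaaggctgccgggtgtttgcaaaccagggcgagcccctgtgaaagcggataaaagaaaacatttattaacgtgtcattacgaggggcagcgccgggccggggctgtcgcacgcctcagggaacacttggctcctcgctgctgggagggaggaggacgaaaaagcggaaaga
Sulf2, chr2:166155684-166155933, minus strand: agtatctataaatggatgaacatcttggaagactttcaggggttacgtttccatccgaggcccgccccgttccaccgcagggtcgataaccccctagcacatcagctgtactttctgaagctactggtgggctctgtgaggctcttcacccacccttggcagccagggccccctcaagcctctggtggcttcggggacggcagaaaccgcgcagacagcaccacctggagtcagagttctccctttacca
Hs6st1, chr1:36068150-36068399, plus strand: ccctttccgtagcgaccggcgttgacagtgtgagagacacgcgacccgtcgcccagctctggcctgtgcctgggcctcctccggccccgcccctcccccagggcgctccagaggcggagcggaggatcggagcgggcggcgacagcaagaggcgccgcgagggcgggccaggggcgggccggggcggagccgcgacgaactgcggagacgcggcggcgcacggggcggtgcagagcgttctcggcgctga
Sdc4, chr2:164443189-164443438, minus strand: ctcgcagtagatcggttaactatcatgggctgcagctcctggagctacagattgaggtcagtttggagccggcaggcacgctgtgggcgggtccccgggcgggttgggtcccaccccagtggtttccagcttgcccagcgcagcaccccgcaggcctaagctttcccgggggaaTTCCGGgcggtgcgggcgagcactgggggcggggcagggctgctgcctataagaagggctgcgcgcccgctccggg
The motifs searched on both strands were CCGGAA for ETS factors and TGANTCA for AP-1, with no overlap between matches. The ETS letters stood in 1 of the 9 member windows and in 12% of all 32851 windows of the table. The AP-1 letters stood in 0 of the 9 member windows and in 6.75% of all windows. A match to so few letters is a description of the sequence and not a measured site.

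All 10 members had a mean value above the minimum of 10 and were tested among 16196 genes with limma, on log2(value + 1) with genotype and series as terms. A gene passed with a Benjamini-Hochberg adjusted p under 0.05 over all genes tested. One of the 10 members passed, Sulf2, which rose, against a background of 2.88% of all genes tested (1.52% higher and 1.36% lower in mutants). By value 4 members were higher and 6 were lower in mutants. The median log2 fold change of the 10 was -0.09, against 0.00 for all genes tested, and the median of absolute values was 0.13 against 0.12. Values of mutants and controls did not overlap for 2 members, Sulf2 and Hs6st1, the first above and the second below, against a background of 15.7% of all genes tested (7.62% above and 8.13% below).

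**Figure D1:**
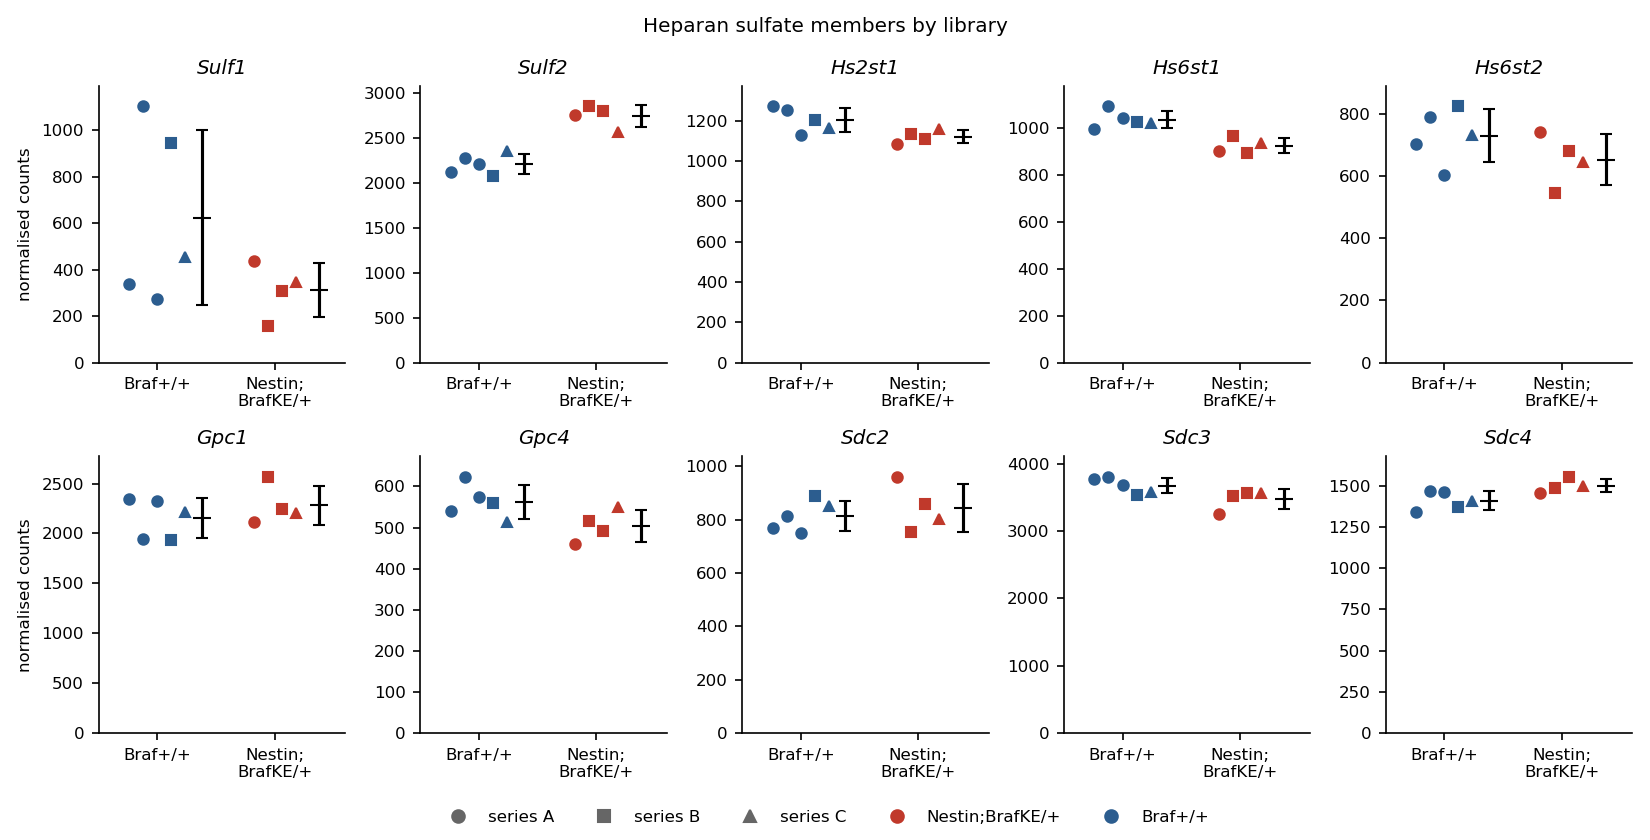
Normalised counts (vertical axes, from 0) of each of the 10 members in the 5 control and 4 mutant libraries, with 1 point per library, its shape giving the series, and a bar for the mean ± SD of each group. The mutant points of Sulf2 lie above all control points, those of Hs6st1 lie below, and 2 control points of Sulf1 lie far above the other 7 libraries.

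Sulf2, the sulfatase that removes 6-O-sulfate from chains outside the cell, was higher in every mutant than in every control. It had normalised counts of 2755, 2855, 2801 and 2571 in mutant replicates 1 to 4 and of 2128, 2279, 2218, 2083 and 2362 in control replicates 1 to 5. The lowest mutant library was thus above the highest control, and the 2 nearest libraries, mutant replicate 4 and control replicate 5, are the 2 libraries of series C. The mean rose from 2214 ± 113 (SD, n = 5) to 2746 ± 123 (SD, n = 4). The log2 fold change was 0.31 (SE 0.06, limma adjusted p = 0.0234), a 1.24-fold difference, with a 95% interval from 0.18 to 0.44. The single mutant of series A exceeded the controls of that series by 0.32. The mutants of B exceeded their single control by 0.44, and the mutant of C exceeded its control by 0.12. Exchanging genotypes only inside series allows 24 arrangements, and the two-sided exact permutation p for Sulf2 was 0.0417, the lowest that number permits. With genotypes exchanged freely among the 9 libraries it was 0.00794, again the lowest possible. That value largely restates the lack of overlap, which 15.7% of all genes tested showed. The study itself reported higher Sulf2 in these same libraries, within a reactive astrocyte gene set drawn from earlier reports. The direction of Sulf2 here is therefore not independent evidence.

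The call for Sulf2 rested on several single libraries. It was lost without mutant replicate 1 (limma adjusted p = 0.132), mutant replicate 3 (0.0713) or control replicate 4 (0.139), while the log2 fold change in these fits was 0.30, 0.30 and 0.24. The other 6 fits that each left out 1 library kept it, with adjusted p-values from 0.0146 to just under the threshold. Without both control replicates 2 and 4 the log2 fold change was 0.25 (adjusted p = 0.180). The call also rested on the grouping of library names. With the 4 name prefixes in place of the 3 series the log2 fold change was 0.31 (limma adjusted p = 0.0688). Markers of several cell types moved with genotype as well. The counts of passing markers that follow stand against 2.88% of all genes tested. By value 10 of 12 astrocyte markers were higher in mutants and 5 passed, with a summed level of 131402 to 149269 in mutants and 120420 to 135978 in controls. All 10 oligodendrocyte markers were higher and 4 passed, with a summed level of 128700 to 138912 in mutants and 94117 to 114101 in controls, and none of these markers was at 0. Higher by value were also 6 of 7 oligodendrocyte precursor, 9 of 10 microglia, 7 of 8 inhibitory neuron and 6 of 9 excitatory neuron markers. So were 8 of 10 endothelial and mural, 5 of 8 meningeal and 5 of 5 blood markers. Of these types, 1 oligodendrocyte precursor, 1 meningeal and 2 excitatory neuron markers passed as higher, and 1 excitatory neuron marker as lower. Summed oligodendrocyte precursor markers were 10274 to 11401 in mutants and 8694 to 9666 in controls. Summed inhibitory neuron markers were 21838 to 23330 and 19180 to 20523. Sums of microglia, excitatory neuron, endothelial and mural, meningeal and blood markers overlapped. Of the choroid plexus markers 0 of 9 were higher. With the mean level of the oligodendrocyte markers as a further term the log2 fold change of Sulf2 was 0.20 (adjusted p = 0.821), and with that of the astrocyte markers it was -0.08 (adjusted p = 1.00), in fits in which 0 genes of the whole table passed. At an unadjusted p under 0.05 these limma fits held 1014 and 662 genes. On the centred log2 scale the lowest mutant had an astrocyte level of 0.106 and the highest control -0.074. For oligodendrocyte markers these were 0.102 and 0.021. Either term thus largely follows genotype, and these fits cannot separate genotype from marker level. The astrocyte list includes Gfap, Aldoc and S100b, which the study reported as raised in these libraries. In whole tissue more cells of a type and more RNA per cell cannot be told apart. Sulf2 (ENSMUSG00000006800) lies on chromosome 2, 165915009 to 165998118 on the minus strand of GRCm39, and Ncoa3 overlaps it on the opposite strand.

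Sulf1, the other sulfatase of the family, varied more between control libraries than nearly any gene. Its normalised counts were 338, 1102, 275, 947 and 452 in control replicates 1 to 5 and 437, 157, 306 and 345 in mutant replicates 1 to 4. The groups overlap, and the 2 highest values are those of control replicates 2 and 4. The SD of controls was 60.4% of their mean, a larger share than in 98.7% of genes tested. Sulf1 differed by -0.87 on the log2 scale (SE 0.46, limma adjusted p = 0.353), with a 95% interval from -1.89 to 0.15. By series it was -0.10 (A), -2.10 (B) and -0.39 (C), and series B has control replicate 4 as its single control.

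Sulf1 and the choroid plexus markers had the same extremes. The summed marker level was highest in control replicates 2 and 4, where Sulf1 was highest, and lowest, at 1468, in mutant replicate 2, where Sulf1 was lowest at 157. By value 9 of 9 choroid plexus markers were lower in mutants, with log2 fold changes from -1.87 to -0.94, and 0 of them passed in limma (2 at an unadjusted p under 0.05). Their summed level ran from 1468 to 24752 in mutants and from 4733 to 393816 in controls. No marker was at 0 in any library. With the mean marker level as a further term the log2 fold change of Sulf1 went from -0.87 to -0.14 (SE 0.13, adjusted p = 0.655). Without control replicates 2 and 4 it was 0.13 (adjusted p = 0.894), so its direction turned. The same term left Sulf2 at 0.30 (adjusted p = 0.0498).

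**Figure D2:**
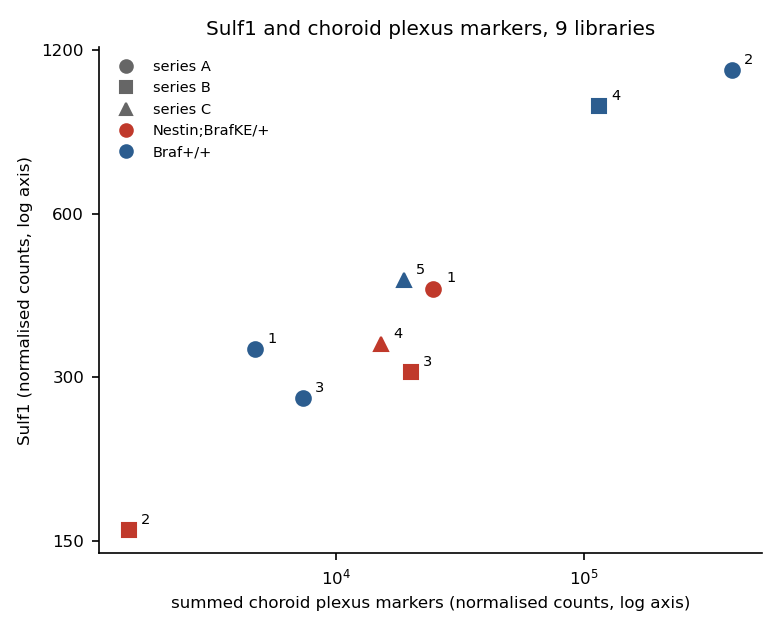
Normalised counts of Sulf1 (vertical log axis) against the summed normalised counts of 9 choroid plexus markers (horizontal log axis), with 1 point per library, numbered by replicate, its colour giving the genotype and its shape the series. Control replicates 2 and 4 are highest on both axes and mutant replicate 2 is lowest on both.

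The sulfotransferases of the list place sulfate on growing chains, Hs2st1 at the 2-O position of the uronic acid and Hs6st1 and Hs6st2 at the 6-O position of glucosamine. All 3 had lower estimates in mutants, with changes of -6.83%, -10.6% and -10.6% for Hs2st1, Hs6st1 and Hs6st2, and 0 of 3 passed in limma (1 at an unadjusted p under 0.05, Hs6st1, against 18.5% of all genes tested). Hs6st1 had normalised counts of 903, 967, 895 and 937 in mutant replicates 1 to 4 and of 997, 1092, 1041, 1024 and 1022 in control replicates 1 to 5. Every mutant library was below every control, with a narrow gap between mutant replicate 2 and control replicate 1. The estimate for Hs6st1 on the log2 scale was -0.16 (SE 0.06, limma adjusted p = 0.181), and each series pointed the same way, with -0.21 (A), -0.14 (B) and -0.12 (C). Its two-sided exact permutation p took the lowest possible value both inside series (0.0417) and across all libraries (0.00794). The value across all libraries leaves out series and largely restates the lack of overlap, which 15.7% of all genes tested showed. Without the series term the limma adjusted p was 0.0276, in a fit in which 2260 genes passed, against 466 with that term.

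Hs2st1 showed a smaller difference with overlapping groups. Its normalised counts were 1083, 1132, 1108 and 1158 in mutants and 1270, 1251, 1126, 1203 and 1163 in controls, so 2 mutant values lie above the lowest control. For Hs2st1 the estimate was -0.10 (SE 0.06, limma adjusted p = 0.420), and the within-series exact permutation p was 0.0417. Hs6st2 had 741, 546, 680 and 644 in mutants and 701, 791, 602, 824 and 732 in controls, and the groups overlap over most of their range. The Hs6st2 estimate was -0.16 (SE 0.12, limma adjusted p = 0.511), while the series disagreed in sign, with 0.09 (A), -0.43 (B) and -0.18 (C). Leaving out 1 library moved it from -0.33 (without mutant replicate 1) to -0.017 (without control replicate 4), and without control replicates 2 and 4 it turned to 0.029. Hs6st1 and Hs6st2 thus had the same point estimate with unequal precision, and the 95% interval of Hs6st2 ran from -0.43 to 0.10.

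Glypicans carry heparan sulfate close to the membrane, and 0 of the 2 members passed in limma. Gpc1, which is abundant on neurons and axons, had normalised counts of 2116, 2566, 2243 and 2205 in mutants and 2343, 1946, 2322, 1932 and 2216 in controls. The groups overlap, and control replicates 2 and 4 are the 2 lowest of all 9 libraries. On the log2 scale Gpc1 differed by 0.09 (SE 0.09, limma adjusted p = 0.645), and by -0.08 without those 2 libraries. Gpc4, which astrocytes release to promote synapse formation, had 459, 516, 491 and 550 in mutants and 540, 623, 573, 560 and 512 in controls. Gpc4 differed by -0.16 (SE 0.09, limma adjusted p = 0.388), and the series gave -0.33 (A), -0.15 (B) and 0.10 (C).

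Of the 3 syndecans 0 passed in limma, and each had overlapping groups. Sdc3, the neuronal syndecan, was the most abundant of the 10 members in normalised counts, with 3252, 3512, 3558 and 3566 in mutants and 3768, 3801, 3680, 3539 and 3574 in controls. Mutant replicate 1 was the lowest of all libraries, and the other 3 mutants lay near the lower controls. Sdc3 differed by -0.08 on the log2 scale (SE 0.05, limma adjusted p = 0.444), made up of -0.21 in series A and -0.00 in both others. Without mutant replicate 1 it was -0.0023. Sdc4, which links matrix contacts to protein kinase C signalling, had 1460, 1486, 1554 and 1501 in mutants and 1339, 1468, 1463, 1374 and 1411 in controls, with 1 mutant value inside the control range. Sdc4 differed by 0.09 (SE 0.06, limma adjusted p = 0.444), with 0.04 (A), 0.15 (B) and 0.09 (C) by series. Sdc2, a syndecan of dendritic spines, had 960, 754, 859 and 803 in mutants and 767, 814, 751, 887 and 852 in controls, and differed by 0.05 (SE 0.09, limma adjusted p = 0.823). Without control replicates 2 and 4 it was 0.16, and without mutant replicate 1 it turned to -0.12. The 95% intervals of the 3 syndecans ran from -0.20 to 0.03 for Sdc3, from -0.04 to 0.21 for Sdc4 and from -0.15 to 0.25 for Sdc2.

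**Figure D3:**
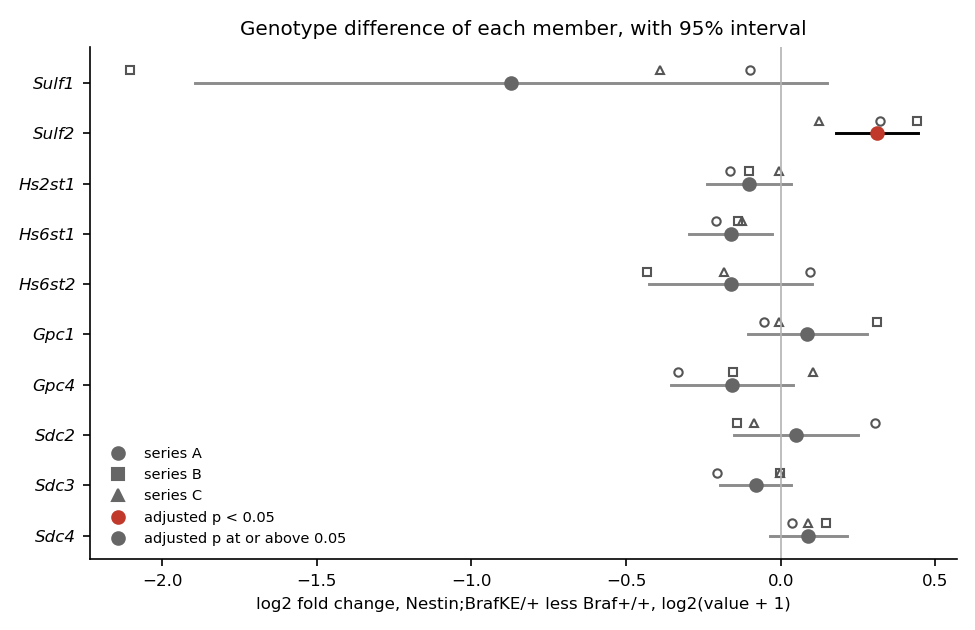
Log2 fold change of each of the 10 members (horizontal axis, mutant less control, on log2(value + 1)), with filled points for the limma estimate, lines for its 95% interval and open symbols for the difference within series A, B and C. Sulf2 at 0.31 is the only member with an adjusted p under 0.05, and the interval of Sulf1, from -1.89 to 0.15, is the widest.

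Levels were compared between genes per kilobase of the canonical transcript in Gencode vM39. In controls the highest normalised counts per kilobase were those of Sdc4 at 512 ± 20.3 (SD, n = 5), Sdc3 at 486 ± 15.2 and Sulf2 at 414 ± 21.1. The control ranges of Sdc4 and Sdc3 overlap, and every Sulf2 value lies below those of Sdc3. In mutants the level of Sulf2 per kilobase was 513 ± 23.0 (SD, n = 4), next to Sdc4 at 545 ± 14.5. The middle of the order held Hs6st1 at 275 ± 9.46 and Gpc1 at 268 ± 24.9, whose control ranges overlap, and then Sdc2 at 220 ± 15.4. The lowest control levels per kilobase were those of Hs2st1 at 178 ± 8.85, Hs6st2 at 168 ± 19.8, Sulf1 at 111 ± 67.2 and Gpc4 at 104 ± 7.65, and each of these overlaps its neighbour. Lengths come from a later annotation than the one the authors used, so these levels are approximate.

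Ratios between members within a library were used to test whether related genes changed by different amounts, in 6 pairs. The ratio of Sulf2 to Hs6st1, the enzyme that removes 6-O-sulfate over one that adds it, was higher in every mutant. On the log2 scale it was 1.61, 1.56, 1.65 and 1.46 in mutant replicates 1 to 4 and 1.09, 1.06, 1.09, 1.02 and 1.21 in control replicates 1 to 5. The groups do not overlap, which was set in advance, since every mutant lay above the controls for Sulf2 and below them for Hs6st1. The difference was 0.47 (SE 0.06), and the series gave 0.53 (A), 0.58 (B) and 0.25 (C). Inside series the two-sided exact permutation p was 0.0417, the lowest possible, and 0.25 after Benjamini-Hochberg adjustment over the 6 ratios, so the ratio fails that correction. Across all libraries the exact permutation p was 0.00794. The pair was chosen when the result for Sulf2 was known. Its permutation p-values are those that each of the 2 genes had alone, so the ratio adds no separate evidence.

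The other 5 ratios had overlapping groups. That of Sulf2 to Sulf1 had a difference of 1.18 (SE 0.69, exact permutation p within series = 0.167, adjusted 0.50), and most of it came from series B with 2.55, against 0.42 in A and 0.51 in C. Without control replicate 4 the difference was 0.46, and without control replicates 2 and 4 it was 0.12. The ratio of Hs6st1 to Hs6st2 differed by -0.00 (SE 0.17) and that of Sdc4 to Sdc2 by 0.04 (SE 0.12). That of Gpc1 to Gpc4 had a difference of 0.24 (SE 0.15, exact permutation p = 0.25), with -0.11 in series C. It was 0.12 without control replicate 4 and 0.031 without control replicates 2 and 4. The ratio of Sdc3 to Sdc2 had a difference of -0.13 (SE 0.14, exact permutation p = 0.333). Without control replicates 2 and 4 the last differed by -0.27, that of Sdc4 to Sdc2 by -0.084 and that of Hs6st1 to Hs6st2 by -0.18. None of the 5 ratios had an exact permutation p under 0.05 within series, where the lowest possible is 0.0417.

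**Figure D4:**
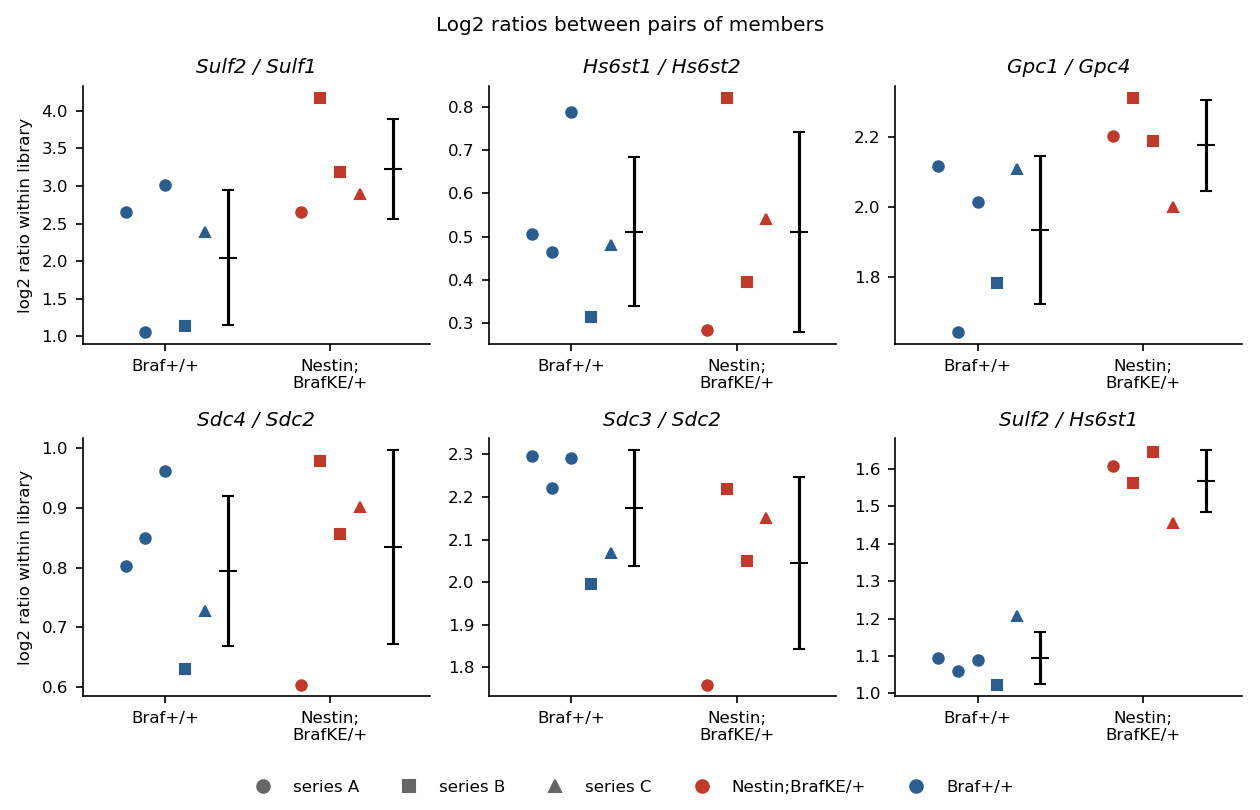
Log2 ratio of 2 members within each library (vertical axes, each with its own range and not starting at 0) for the 6 pairs tested, with 1 point per library, shapes for series and bars for the mean ± SD of each group. The ratio of Sulf2 to Hs6st1 runs from 1.02 to 1.21 in controls and from 1.46 to 1.65 in mutants, and the groups of the other 5 pairs overlap.

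The rest of the pathway was described with a list of 92 genes in 9 roles, members included, of which 90 were tested. Of the 90, 3 rose and 0 fell at an adjusted p under 0.05 in limma, which is 3 of 90 against the background of 2.88%, and 48 were higher and 42 lower by value. The median log2 fold change of the list was 0.03. Besides Sulf2 these were Fgfr1 and Fgf1, a receptor and a ligand whose complex forms on heparan sulfate. For 12 of the 90 genes all mutants lay on 1 side of all controls, 7 above and 5 below, against 15.7% of all genes. The count of 3 was 1 without mutant replicate 1, mutant replicate 3 or control replicate 4, and without control replicates 2 and 4 together. It was 5 without mutant replicate 4 or control replicate 5.

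Fgfr1, the fibroblast growth factor receptor that signals through RAS and ERK, showed the largest difference among the genes of the list that passed. It had normalised counts of 3612, 4044, 3932 and 3718 in mutant replicates 1 to 4 and of 2756, 2666, 2653, 2431 and 2719 in control replicates 1 to 5, with a wide gap between the groups. Its log2 fold change was 0.53 (SE 0.06, limma adjusted p = 0.00226), an increase of 44.6%, and the series gave 0.42 (A), 0.71 (B) and 0.45 (C). The call held in all 9 fits that left out 1 library, with adjusted p-values from 0.00520 to 0.0204. Fgf1, a growth factor that binds heparan sulfate, had 1310, 1309, 1419 and 1300 in mutants and 998, 1155, 999, 999 and 1070 in controls, and the groups do not overlap. Fgf1 rose by 0.35 on the log2 scale (SE 0.07, limma adjusted p = 0.0243), with 0.32, 0.45 and 0.28 within series. The call for Fgf1 was lost without mutant replicate 1 (adjusted p = 0.117), mutant replicate 3 (0.0708) or control replicate 4 (0.143), with log2 fold changes of 0.38, 0.33 and 0.31. Without control replicates 2 and 4 it was 0.34 (adjusted p = 0.103). The astrocyte and oligodendrocyte markers were also higher in mutants, as given for Sulf2. With the astrocyte marker level as a term Fgf1 turned to -0.046 (adjusted p = 1.00) and Fgfr1 was 0.36 (adjusted p = 1.00). With the oligodendrocyte marker level Fgf1 was 0.31 (adjusted p = 0.778) and Fgfr1 was 0.53 (adjusted p = 0.491), in the fits in which 0 genes of the table passed. As given for Sulf2, these fits cannot separate genotype from marker level. Over the 18 growth factors and receptors of the list, 10 were higher by value and the median was 0.01. In limma 6 of the 18 had an unadjusted p under 0.05 (4 higher and 2 lower), against 18.5% of all genes tested. The other 2 FGF receptors of the list, named after their values were seen, did not pass, with log2 fold changes of 0.17 for Fgfr3 (adjusted p = 0.199) and -0.20 for Fgfr2 (adjusted p = 0.248). Whether these differ from Fgfr1 was not tested.

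Synthesis genes showed no call in limma in any role. The counts at an unadjusted p under 0.05 that follow stand against 18.5% of all genes tested. Of 7 genes for the linker that joins chain to core protein, 0 passed (0 at an unadjusted p under 0.05), and the most abundant, the kinase Fam20b, had a log2 fold change of -0.06. Of 5 polymerisation genes 0 passed (1 at an unadjusted p under 0.05), with 0.06 for Extl3, which starts the chain. Of 15 modification genes tested 0 passed (1 at an unadjusted p under 0.05, Hs6st1). The most abundant of them, Ndst1, which exchanges acetyl for sulfate on glucosamine, was 2746 ± 63.5 (SD, n = 4) in mutants and 2598 ± 52.5 (SD, n = 5) in controls, with no overlap and a log2 fold change of 0.08 (adjusted p = 0.405). Of 7 genes for sulfate donor and sugar precursors 0 passed (1 at an unadjusted p under 0.05), with 0.08 for Papss1, which makes the sulfate donor.

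Core proteins and breakdown genes likewise had 0 calls in limma, among 14 and 8 genes tested, with 2 and 4 at an unadjusted p under 0.05 (18.5% of all genes tested). The most abundant core protein, agrin (Agrn), differed by 0.08 on the log2 scale (adjusted p = 0.476). Gpc2, a glypican of developing neurons chosen here after its values were seen, had the highest log2 fold change of the 90 genes, 0.65 (SE 0.18, adjusted p = 0.0783). Its normalised counts of 77.5 to 90.4 in mutants lay above the 45.0 to 64.7 in controls. Among lysosomal enzymes 6 of 8 were higher by value with a median of 0.16, and the most abundant, Ids, had -0.09 (adjusted p = 0.536). Of 12 synaptic partners of glypicans and syndecans 9 were lower by value, 0 passed (4 at an unadjusted p under 0.05, all lower, against 18.5% of all genes in either direction), and the median was -0.09. Among these Gpr158, a receptor of Gpc4 that was chosen after its values were seen, differed by -0.19 on the log2 scale (SE 0.05, limma adjusted p = 0.0843) with every mutant below every control, and Gria1, a glutamate receptor subunit, had 0.04 (adjusted p = 0.731).

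**Figure D5:**
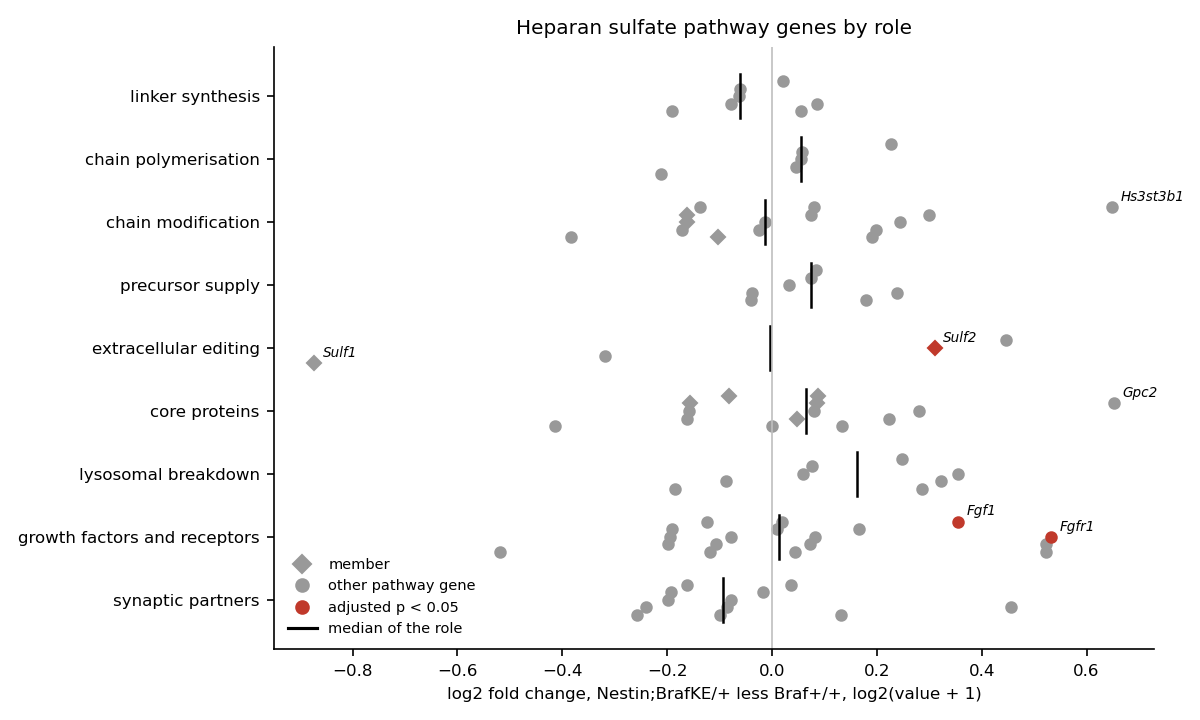
Log2 fold change of the 90 tested heparan sulfate pathway genes (horizontal axis, mutant less control, on log2(value + 1)) by role, with diamonds for members, circles for other genes, red for an adjusted p under 0.05 and a bar for the median of each role. Sulf2, Fgf1 and Fgfr1 are the 3 red points, and role medians run from -0.09 for synaptic partners to 0.16 for lysosomal breakdown.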

How the data were processed

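Per the study's methods the authors trimmed reads with TrimGalore, aligned them with STAR to GRCm39 (Gencode vM28) and quantified them with Salmon. They adjusted for batches, without naming these, in DESeq2. The deposited table holds the signal of each gene and library in normalised counts. Its values are whole multiples of 1 step per library (0.993 to 1.00; 100% within 0.01 of a whole number). The mitochondrial gene mt-Co1 had the same number of steps, 491938, in all 9 libraries, so the steps were not taken as raw reads and no count model was fitted. How the table was made from the counts is not given in the sources used here. Precision rests on the spread between libraries. Each of the 9 library columns entered.

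The limma test took genes whose mean reached 10 and was run with version 3.58.1 in R 4.3.3 on log2(value + 1). Its terms were genotype and the series of library names, and the prior variance followed the mean. A fold change on that scale is understated for low genes. Single values were tested by two-sided exact permutation. P-values rest on the spread between libraries, 1 per animal, in the deposited values, and how those were adjusted is not given. The members, the pathway and marker lists and the tests were chosen with earlier results of these data known. Named genes are all members, pathway genes that passed, and the most abundant gene of a role as its example. Gpc2, Gpr158, Fgfr2 and Fgfr3 fall outside that rule and were chosen after their values were seen. The fits were tested on simulated data. Gene coordinates and lengths came from Gencode vM39 on GRCm39, in which all 91 listed gene IDs were found. Same-numbered mutant and control libraries did not deviate together (r = -0.39, -0.08, 0.07 and 0.42 for replicates 1 to 4), so the numbers were not used as pairs. Figures were drawn with Python 3.11.15 and matplotlib 3.10.9.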

Additional observations from a re-analysis of the deposited data

Results flagged for a closer look

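Of 20 groups of member values (10 genes in 2 genotypes), 1 held a library whose gap to the next exceeded Dixon's 95% critical value, a limit that chance alone passes in about 1 of 20 groups. Sdc3 in mutant replicate 1 had 3252 normalised counts, below the 3512 to 3566 of the other 3 mutants.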

How the results depend on the processing

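Pseudocounts of 0.5 and 8, no filter, a minimum mean of 50, other scalings and robust variance left the call of Sulf2 and the counts of 1 member and 3 pathway genes as they were. The count of 466 genes past the threshold became 2260 without the series term, 165 with 4 name prefixes in place of 3 series, 258 with array quality weights and 42 to 371 without 1 library in turn. The count of members became 2, 0 and 0 to 1 without the series term, with 4 prefixes and without 1 library, and that of pathway genes became 16 without the series term and 1 to 5 without 1 library. With the replicate block 1405 genes, 1 member and 10 pathway genes passed, but the numbers do not pair the libraries, and of the 4 mutants only replicate 4 correlated best with its own number. The next alternatives were chosen after seeing the data. Without control replicates 2 and 4 there were 58 genes, 0 members and 1 pathway gene. With astrocyte or oligodendrocyte marker level as a term 0 genes, 0 members and 0 pathway genes passed (662 and 1014 genes at an unadjusted p under 0.05). With the choroid plexus marker level 355 genes passed.

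Directions turned as follows, and the cause was not tested. Without control replicates 2 and 4 the log2 fold change was -0.083 for Gpc1, 0.029 for Hs6st2 and 0.13 for Sulf1, and the difference in the ratio of Sdc4 to Sdc2 was -0.084. The astrocyte and oligodendrocyte marker levels separate the genotypes, so a turn with either term cannot be read as a change in the genotype difference. With the astrocyte term the log2 fold change was -0.046 for Fgf1, 0.18 for Gpc4, 0.066 for Hs2st1, -0.27 for Sdc2, -0.072 for Sdc4 and -0.081 for Sulf2. With the oligodendrocyte term it was 0.066 for Hs2st1, -0.014 for Sdc2 and -0.0073 for Sdc4. The choroid plexus term gave -0.035 for Gpc1. Without 1 library in turn Gpc1 ran from -0.035 to 0.18, Sdc2 from -0.12 to 0.15, and the ratios of Hs6st1 to Hs6st2 from -0.16 to 0.19, of Sdc4 to Sdc2 from -0.091 to 0.24 and of Sdc3 to Sdc2 from -0.27 to 0.11. Quantile normalisation gave 0.0062 for Hs6st1 to Hs6st2. The ratio of Sulf2 to Hs6st1 was 0.46 with 4 prefixes, 0.50 with the replicate block, 0.40 without control replicates 2 and 4 and 0.42 to 0.55 without 1 library, in designs with too few arrangements to reach 0.05. Count models (edgeR, DESeq2) were not run, since the values are not reads. Depth is unknown, so precision rests on 4 and 5 animals.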
